A study of Mus musculus with 19 samples.

Results

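The 10 synaptotagmin genes described here are Syt1, Syt2, Syt4, Syt5, Syt7, Syt9, Syt11, Syt13, Syt16 and Syt17, which were followed through mRNA-seq of the whole mouse vomeronasal organ (VNO), the organ that detects pheromones. They were chosen by name, with earlier results of these data known, out of 35596 genes for which the estimated counts of all transcripts were added. All 10 had enough counts to be tested in each comparison. Female mice at postnatal day 21 came from 2 lines in which Cre recombinase deletes a floxed Smad4, the nuclear partner on which TGFβ and BMP receptors of the canonical pathway converge. AP-2εCre, a knock-in at Tfap2e, works in vomeronasal sensory neurons (VSNs) of the basal type while they are still immature. OMPCre, a knock-in at Omp, works once apical and basal VSNs have matured. In each line there were 3 libraries of conditional knockouts (cKO; Cre+/-/Smad4 flox/flox), 3 of Cre+/- animals with intact Smad4 (Het) and 3 of Smad4 flox/flox animals without Cre, which the labels call wild type and which are called flox controls here. The 3 Het and 3 flox libraries of a line together are its 6 controls. In both Cre genotypes the Cre replaces 1 copy of its host gene, so the cKO and Het animals share that loss and the flox controls do not.

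Synaptotagmins are membrane-trafficking proteins that carry a pair of C2 domains in the cytoplasm and, in most members, a single transmembrane segment near the amino terminus. Syt1, Syt2 and Syt9 are calcium sensors for fast vesicle fusion, and Syt7 is a slower, high-affinity calcium sensor that also works on lysosomes and dense-core granules. Other members, among them Syt4, Syt11, Syt13 and Syt16, lack residues needed for calcium-dependent lipid binding and act in trafficking without serving as calcium sensors. In sensory neurons such as VSNs these proteins take part in release at the axon terminal and in the delivery of membrane.

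Total estimated counts ranged from 43385516 to 134042284 over the 18 libraries. The basal VSN markers Gnao1, Robo2, Tfap2e, Vmn2r1 and Vmn2r2 and the apical markers Gnai2, Nrp2 and Meis2 had counts in every library. Smad4 itself lay between 54.4 and 62.5 CPM in OMPCre cKO libraries and between 64.8 and 83.9 CPM in their controls, without overlap, whereas in the AP-2εCre line the ranges of 33.8 to 66.5 CPM and 39.6 to 81.0 CPM overlapped. In neither line did Smad4 pass the test across all genes (edgeR adjusted p = 0.955 in AP-2εCre and 0.909 in OMPCre), and whole organs also hold many cells without Cre. The host genes of the Cre knock-ins were lower in Hets, Tfap2e at 5.44 to 8.88 CPM in AP-2εCre Hets against 14.01 to 16.6 CPM in flox controls and Omp at 225 to 248 CPM in OMPCre Hets against 305 to 474 CPM (DESeq2 adjusted p = 0.000207 and 0.000880; edgeR 0.187 and 0.347). CPM here are counts per 1000000, normalized for library size by TMM, and are not divided by gene length.

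Syt13 is the member on which most of the results turn. The gene lies on the plus strand of chromosome 2 (GRCm38, 92915098 to 92956058) and has a single annotated transcript, Syt13-201, of 3761 bases in 6 exons. All 3687 windows of 75 bases, the length of a read, that fit in this transcript occur in no other annotated transcript, so no count had to be shared with a relative.

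The 10 genes spanned a wide range of levels in control VNOs. Levels were compared between genes as TPM, which is divided by transcript length, and they were summed over each gene's transcripts in the 12 control libraries. Syt7 was highest at 197 ± 62.1 TPM (SD, n = 12), followed by Syt11 at 72.3 ± 17.1 TPM and by Syt1 at 19.6 ± 4.10 TPM. Syt5 at 11.2 ± 3.18 TPM and Syt4 at 9.08 ± 3.30 TPM came next, then Syt9 at 2.51 ± 0.457 TPM. Low levels were found for Syt16 at 1.42 ± 0.874 TPM and Syt17, a palmitoylated member without a transmembrane segment, at 0.818 ± 0.415 TPM. The lowest levels were those of Syt13 at 0.0942 ± 0.0586 TPM and Syt2 at 0.0587 ± 0.112 TPM. Neighbours in this order kept it in all 12 libraries for Syt7 over Syt11, Syt11 over Syt1, Syt1 over Syt5, Syt4 over Syt9 and Syt17 over Syt13. Syt5 was above Syt4 in 9 of 12 libraries, Syt9 above Syt16 in 10, Syt16 above Syt17 in 9 and Syt13 above Syt2 in 10, with overlapping ranges. The order of these neighbours thus varied between libraries.

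**Figure D1:**
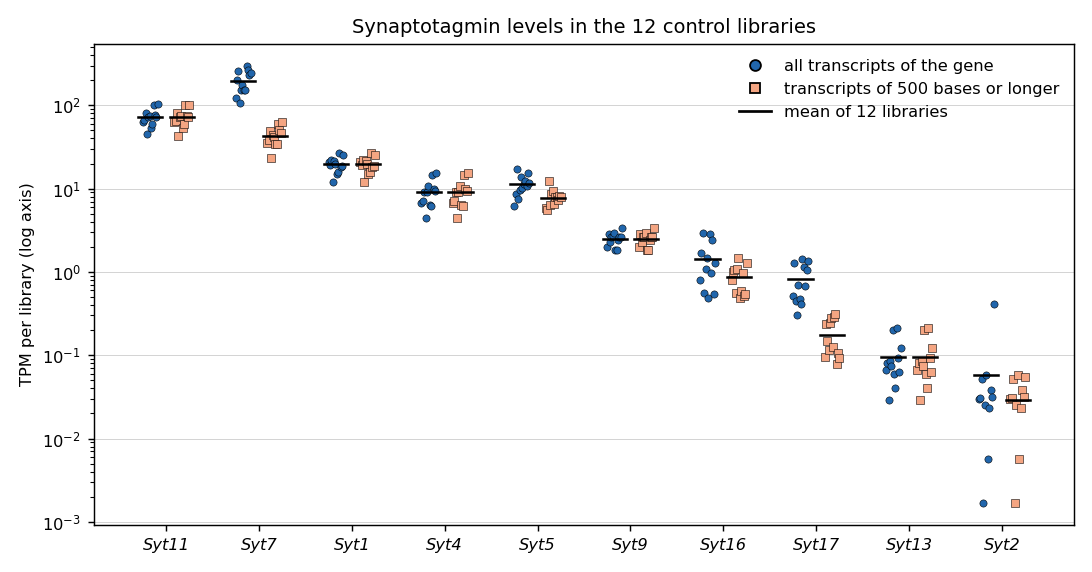
TPM of each gene in the 12 control libraries on a log axis, as a sum over all annotated transcripts (circles) and over transcripts of 500 bases or longer (squares), with lines at the mean; libraries at 0 are not drawn but enter the mean. Syt7 falls from a mean of 197 TPM to 43.3 TPM and Syt17 from 0.818 to 0.177 TPM when short transcripts are left out, while the means of Syt1, Syt4 and Syt13, which have no transcript that short, stay where they were.

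The first place of Syt7 rested on 1 very short transcript. Syt7-211 is annotated as a processed transcript of 236 bases in 3 exons on the plus strand of chromosome 19 (GRCm38, between 10389483 and 10435674). It received 77.2 to 296 estimated counts in a library but, because of its length, a median of 158 TPM and 58.6% to 82.4% of the gene's TPM. The full-length coding transcript Syt7-202, of 6624 bases, received 9055 to 32982 counts and a median of 31.6 TPM. The 162 windows of 75 bases in Syt7-211 are all found in other Syt7 transcripts as well, so its share is an estimate by the quantifier with no reads of its own. Its sequence is shown because this transcript decides the gene's place, with the 10 bases on either side of its first exon junction in capitals.
Syt7-211, all exons joined: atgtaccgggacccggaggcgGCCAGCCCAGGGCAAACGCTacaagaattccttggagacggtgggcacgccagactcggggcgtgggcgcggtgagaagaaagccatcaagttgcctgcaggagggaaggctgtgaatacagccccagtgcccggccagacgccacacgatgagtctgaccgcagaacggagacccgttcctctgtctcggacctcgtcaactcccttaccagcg

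Over transcripts of 500 bases or longer, a choice made after these values were seen, Syt11 was highest at 71.6 ± 17.3 TPM and Syt7 second at 43.3 ± 11.4 TPM, with Syt11 above Syt7 in 12 of 12 libraries. Syt4 at 9.08 ± 3.30 TPM then lay above Syt5 at 7.81 ± 1.83 TPM in 8 of 12 libraries. Syt17 was at 0.177 ± 0.0871 TPM, above Syt13 in 10 of 12 libraries. Syt16 was at 0.864 ± 0.333 TPM and Syt2 at 0.0292 ± 0.0198 TPM. Syt9 was then above Syt16, and Syt16 above Syt17, in 12 of 12 libraries without overlap of their ranges. The levels of Syt13, Syt4 and Syt1 themselves stayed as they were, since none of their transcripts is shorter than 500 bases, but how they compare with Syt7, Syt5, Syt16, Syt17 and Syt2 depends on whether short transcripts of those genes are included.

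**Figure D2:**
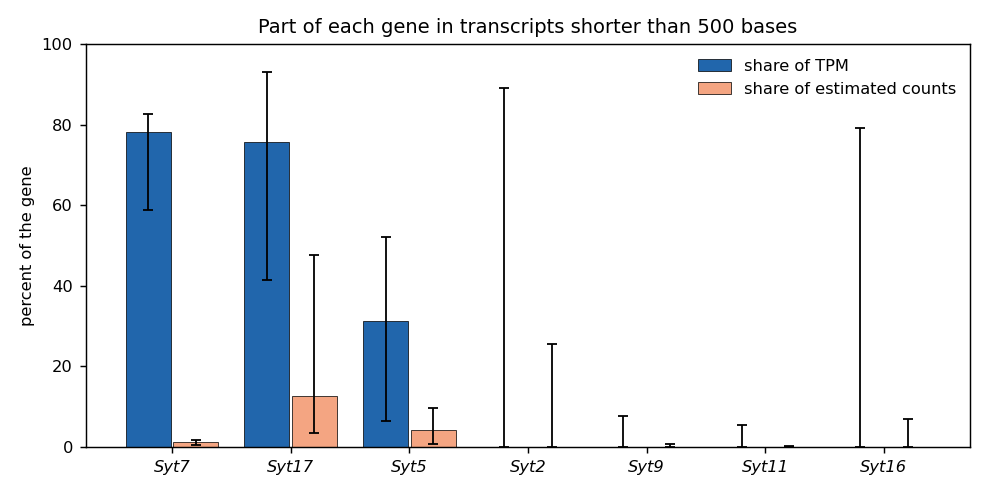
Percent of each gene's TPM and of its estimated counts that fell on transcripts shorter than 500 bases, as the median of 18 libraries with bars from the lowest to the highest library, for the 7 genes that have such transcripts. In Syt7 a median of 1.14% of the counts made up 78.1% of the TPM, and in Syt17 a median of 12.7% made up 75.8%.

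Among the transcripts of the other members, Syt1-201 held a median of 95.6% of the TPM of Syt1 over the 18 libraries. Syt11 was divided between the coding transcripts Syt11-201 (median 69.1%) and Syt11-205 (median 29.1%), and 72 windows of Syt11-201, 1.6% of its windows, also occur in transcripts of other genes. In Syt16 the transcript annotated as subject to nonsense-mediated decay, Syt16-201, held a median of 75.5% and the coding Syt16-203 a median of 17.1%. In Syt9 the coding Syt9-201 held a median of 61.4%, and retained-intron transcripts held much of the rest. Syt4, like Syt13, has a single annotated transcript.

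Each cKO was then compared with the 6 controls of its line, which addresses what loss of Smad4 before or after VSN maturation does to the organ's transcripts. Changes are log2 fold changes from edgeR's quasi-likelihood test. The standard error (SE) of a change was derived from that test, as the absolute log2 fold change over the square root of its F statistic. All tests are two-sided, and called genes are those with an adjusted p under 0.05 over all genes tested. Syt13 was the member with the largest fold difference in AP-2εCre cKO VNOs and was second in OMPCre cKO VNOs to Syt2, which had very few counts. It was higher in all 6 cKO libraries than in any of the 12 controls, and it was called when the effect was averaged over both lines. The calcium-independent Syt11 lay above the controls in both lines and Syt16 in 1, by less and without a call by edgeR, and the calcium sensors Syt1 and Syt7 and the dense-core vesicle protein Syt4 differed little.

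In the AP-2εCre line, Syt13 had 13, 17 and 5 counts in the flox controls, 27, 20 and 48 in the Hets, and 103, 248 and 147 in the cKO libraries. The same values were 0.339, 0.378 and 0.108 CPM in flox controls, 0.416, 0.308 and 0.847 CPM in Hets, and 1.59, 1.77 and 2.16 CPM in cKO. The lowest cKO library thus lay above the highest control, a Het. The mean was 1.84 ± 0.289 CPM (SD, n = 3) in cKO against 0.399 ± 0.244 CPM (n = 6) in controls, a ratio of 4.61.

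The log2 fold change of Syt13 in this line was 2.20 (SE 0.48), with an edgeR adjusted p of 0.257 that did not pass. DESeq2 called it at an adjusted p of 0.00296, and over the 9 alternatives its adjusted p lay between 0.00296 and 0.462, with 1 of 9 calling it. Its log2 fold change over these alternatives, which include either kind of control alone, ranged from 1.82 to 2.74. An exact permutation test over the 84 ways to divide 9 libraries gave p = 0.012, the smallest it can give. By edgeR 7 of 18495 genes, or 0.0378%, were called in this comparison and 0.0162% were called higher, and by DESeq2 314 genes, or 1.53%. An unadjusted p under 0.05 was found for 2 of 10 members, Syt13 and Syt11, beside 10.2% of all genes and 4.18% on the higher side. Groups did not overlap, with cKO higher, for these same 2 members and for 2.21% of all genes tested, and in either direction for 5.06%.

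In the OMPCre line, Syt13 had 22, 13 and 39 counts in flox controls, 27, 17 and 27 in Hets, and 65, 64 and 71 in cKO libraries. These were 0.334, 0.182 and 0.722 CPM in flox controls, 0.422, 0.282 and 0.395 CPM in Hets, and 1.01, 1.03 and 1.30 CPM in cKO. Here too the 3 cKO libraries lay above the 6 controls, the nearest control being a flox library. The mean was 1.11 ± 0.161 CPM (n = 3) against 0.390 ± 0.184 CPM (n = 6), a ratio of 2.86.

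The log2 fold change of Syt13 in the OMPCre line was 1.51 (SE 0.42), and the edgeR adjusted p of 0.98 did not pass, nor did DESeq2's of 0.187. The exact permutation test again gave its smallest p of 0.012. No gene, 0.0% of 18623, was called by edgeR in this comparison (735 genes, or 3.95%, at an unadjusted p under 0.05, and 2.06% on the higher side), whereas DESeq2 called 45 genes, or 0.239%. Syt13, Syt16 and Syt11 were the 3 members with an unadjusted p under 0.05. They were also the 3 whose groups did not overlap, with cKO higher, as for 1.41% of all genes, or 2.35% in either direction.

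Averaged over both lines in a fit of all 18 libraries, Syt13 rose by a log2 fold change of 1.90 (SE 0.31), 3.72-fold, with an edgeR adjusted p of 0.0185. Of 19465 genes tested 34, or 0.175%, were called higher and 0.205% were called in either direction. DESeq2 called it at an adjusted p of 3.56e-06, among 1.24% of genes. The same 3 members, Syt13, Syt16 and Syt11, had an unadjusted p under 0.05 in the mean, beside 9.29% of genes, or 4.83% on the higher side. Having all 6 cKO libraries above all 12 controls was shared with 21 of the other genes, so that 22 genes, or 0.113%, did so. Leaving out 1 library at a time, the call held in 16 of 18 cases. It was lost without AP-2εCre cKO replicate 3, at an edgeR adjusted p of 0.0751, and without OMPCre cKO replicate 3, at 0.0765.

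**Figure D3:**
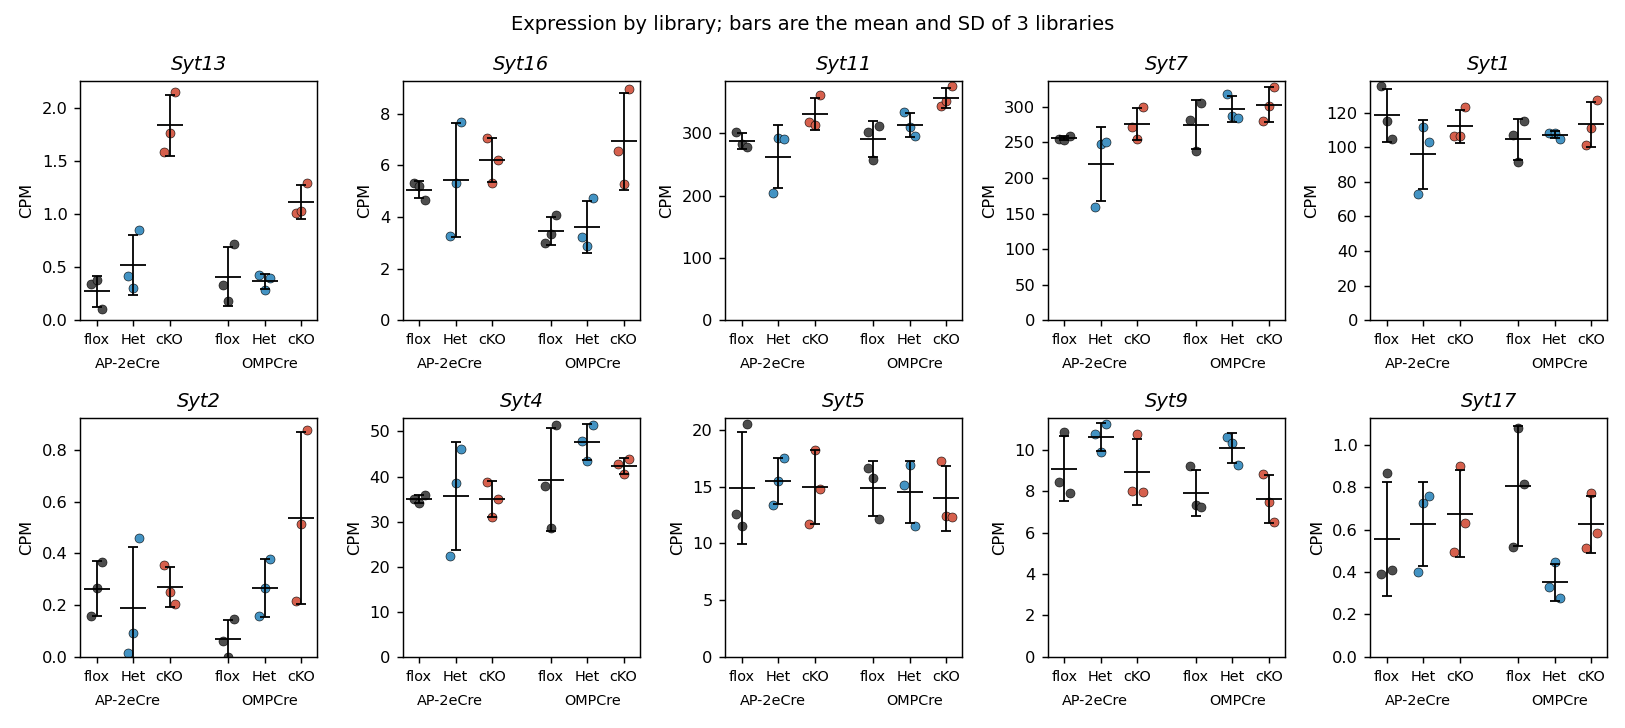
CPM of each member in each library, by group and line, with the mean and SD of 3 libraries and every vertical axis starting at 0; flox marks the Smad4 flox/flox controls. The 6 Syt13 cKO libraries lie between 1.01 and 2.16 CPM, above the 12 controls at 0.108 to 0.847 CPM, and the other members overlap in at least 1 line except Syt11.

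Syt13 was higher in cKO VNOs in both sets of libraries that the names of the libraries distinguish, 1 named by a letter and a number and 1 by the line and a number. In the first set the ratio of cKO to control means was 5.45 in AP-2εCre and 3.34 in OMPCre, with 2 cKO and 4 control libraries in each line. In the second it was 3.33 and 2.33, with 1 cKO and 2 control libraries. In each case every cKO library was above every control of its set. This follows from the 6 cKO libraries lying above all 12 controls and is no separate result. In the first set alone the mean effect was 2.10 on the log2 scale, with an edgeR adjusted p of 0.0502.

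The ratio of Syt13 was larger in AP-2εCre than in OMPCre, but the difference between the lines did not pass the test. The interaction, AP-2εCre effect minus OMPCre effect, was 0.76 on the log2 scale (SE 0.66), with an edgeR adjusted p of 1.0, where 0.00514% of genes were called by edgeR and 0.259% by DESeq2. No member had an unadjusted p under 0.05 for this difference, beside 5.05% of genes. The Cre allele without loss of Smad4 gave no called difference in Syt13. Het minus flox was 0.93 (SE 0.56) in AP-2εCre, with an edgeR adjusted p of 0.978, and -0.18 (SE 0.54) in OMPCre, with an edgeR adjusted p of 0.989. Between the controls of the lines, where 0.2% of genes were called and 7.44% had an unadjusted p under 0.05, the Syt13 difference was -0.035 on the log2 scale (SE 0.38, edgeR adjusted p = 0.999).

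Per length, Syt13 stayed a scarce transcript in cKO VNOs, at 0.502 ± 0.0716 TPM (n = 3) in AP-2εCre and 0.267 ± 0.0871 TPM (n = 3) in OMPCre. In whole organs a higher level in some cells cannot be told apart from more cells of a type, nor a lower one from fewer cells. Among marker lists, the summed level of the 3 apical VSN markers, all detected in every library, was 972 to 1014 CPM in AP-2εCre cKO against 751 to 905 CPM in controls, and 935 to 983 CPM in OMPCre cKO against 808 to 896 CPM in controls. The 3 neuroendocrine markers Chga, Insm1 and Syp, all detected, summed to 706 to 860 CPM in AP-2εCre cKO against 424 to 819 CPM, and to 688 to 808 CPM in OMPCre cKO against 527 to 814 CPM. The 4 immune markers, all detected, summed to 81.4 to 86.2 CPM in AP-2εCre cKO against 62.7 to 81.2 CPM in controls, and to 61.6 to 71.4 CPM in OMPCre cKO against 58.6 to 77.2 CPM. The 5 immature neuron markers, all detected, summed to 253 to 304 CPM in AP-2εCre cKO against 196 to 265 CPM in controls, and to 224 to 295 CPM in OMPCre cKO against 226 to 285 CPM. Their log2 fold changes were positive for 5 of 5 in AP-2εCre (median 0.31), 3 of 5 in OMPCre (median 0.073) and 5 of 5 in the mean (median 0.24). The 4 secretory gland markers, all detected, summed to 44166 to 77606 CPM in AP-2εCre cKO against 71912 to 154616 CPM, and to 71747 to 100176 CPM in OMPCre cKO against 51301 to 152715 CPM. The 5 basal VSN markers, all detected, summed to 427 to 541 CPM in AP-2εCre cKO against 320 to 645 CPM in controls. In OMPCre they summed to 534 to 628 CPM in cKO against 491 to 633 CPM. The 5 markers of main-epithelium olfactory sensory neurons, all detected, summed to 243 to 276 CPM in AP-2εCre cKO against 215 to 288 CPM. In OMPCre these were at 156 to 214 CPM in cKO, 155 to 183 CPM in flox controls and 264 to 311 CPM in Hets. The part of these lists in the rise of Syt13 was not tested.

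Syt11, which is related to Syt4 and restrains endocytosis, was the other member with no overlap in either line. In the AP-2εCre line it was at 302, 284 and 278 CPM in flox controls, 204, 292 and 291 CPM in Hets, and 319, 314 and 361 CPM in cKO. In the OMPCre line it was at 302, 257 and 312 CPM in flox controls, 334, 310.0 and 296 CPM in Hets, and 344, 351 and 375 CPM in cKO. The cKO libraries were above the controls of their line in both lines, as was so for 33 genes, or 0.17%, but 2 AP-2εCre cKO libraries lay below the highest OMPCre control.

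The ratio of Syt11 means was 1.20 in AP-2εCre and 1.18 in OMPCre. Its log2 fold change was 0.27 (SE 0.12) in AP-2εCre, with an edgeR adjusted p of 0.484, and 0.24 (SE 0.085) in OMPCre, with an edgeR adjusted p of 1.0. The exact permutation test gave p = 0.024 and p = 0.012. Averaged over the lines it was 0.26 (SE 0.074), with an edgeR adjusted p of 0.256 and DESeq2's of 0.0766, neither past the threshold. Without AP-2εCre Het replicate 1, at 204 CPM the lowest control, the log2 fold change in that line was 0.20 (SE 0.076).

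Both main Syt11 transcripts had higher means in the cKO. In AP-2εCre, Syt11-201 was at 46.8 ± 4.83 TPM in flox controls, 44.4 ± 11.3 TPM in Hets and 66.6 ± 7.54 TPM in cKO (n = 3 each). In OMPCre it was at 48.9 ± 14.5, 56.2 ± 7.71 and 61.1 ± 10.8 TPM in the same order. The shorter Syt11-205 was at 22.7 ± 5.30, 17.5 ± 6.42 and 29.2 ± 14.4 TPM in AP-2εCre and at 21.3 ± 10.8, 25.9 ± 9.15 and 27.6 ± 14.8 TPM in OMPCre. The spread within groups was as large as these differences except for Syt11-201 in AP-2εCre.

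Syt16, a member that lacks the transmembrane segment, lay above its controls in OMPCre cKO VNOs. In that line it was at 3.01, 3.34 and 4.07 CPM in flox controls, 3.21, 2.89 and 4.75 CPM in Hets, and 6.56, 5.27 and 8.95 CPM in cKO. All 3 cKO libraries were above the 6 controls, with a ratio of means of 1.95. In the AP-2εCre line it was at 5.32, 5.20 and 4.68 CPM in flox controls, 3.28, 5.30 and 7.70 CPM in Hets, and 7.05, 5.33 and 6.22 CPM in cKO, and the groups overlapped.

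The log2 fold change of Syt16 was 0.96 (SE 0.22) in OMPCre, where the edgeR adjusted p of 0.834 did not pass and DESeq2's of 0.0255 did. In AP-2εCre it was 0.24 (SE 0.23, edgeR adjusted p = 0.795). With counts from length-scaled TPM the order of the lines turned, at 0.24 (SE 0.56) in OMPCre and 0.75 (SE 0.43) in AP-2εCre. The exact permutation test gave p = 0.012 in OMPCre and p = 0.27 in AP-2εCre. The difference between the lines was -0.73 (SE 0.34), with an edgeR adjusted p of 0.986. Among controls AP-2εCre minus OMPCre was 0.56 (SE 0.20), with an unadjusted p under 0.05 and an edgeR adjusted p of 0.514, and with counts from length-scaled TPM it was -0.057.

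Both longer transcripts of Syt16 had higher means in the cKO of both lines. In OMPCre, Syt16-201 was at 0.543 ± 0.164 TPM in flox controls, 0.640 ± 0.391 TPM in Hets and 1.14 ± 0.554 TPM in cKO (n = 3 each). The coding Syt16-203 was at 0.138 ± 0.0904, 0.147 ± 0.0519 and 0.278 ± 0.111 TPM in the same order. In AP-2εCre, Syt16-201 was at 0.764 ± 0.182, 0.804 ± 0.345 and 1.17 ± 0.423 TPM. Syt16-203 was at 0.185 ± 0.0517, 0.236 ± 0.121 and 0.274 ± 0.0482 TPM there. The short Syt16-202, of 330 bases, was at 0 TPM in the median library and took up to 79.1% of the gene's TPM in others, on at most 22.8 counts.

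**Figure D4:**
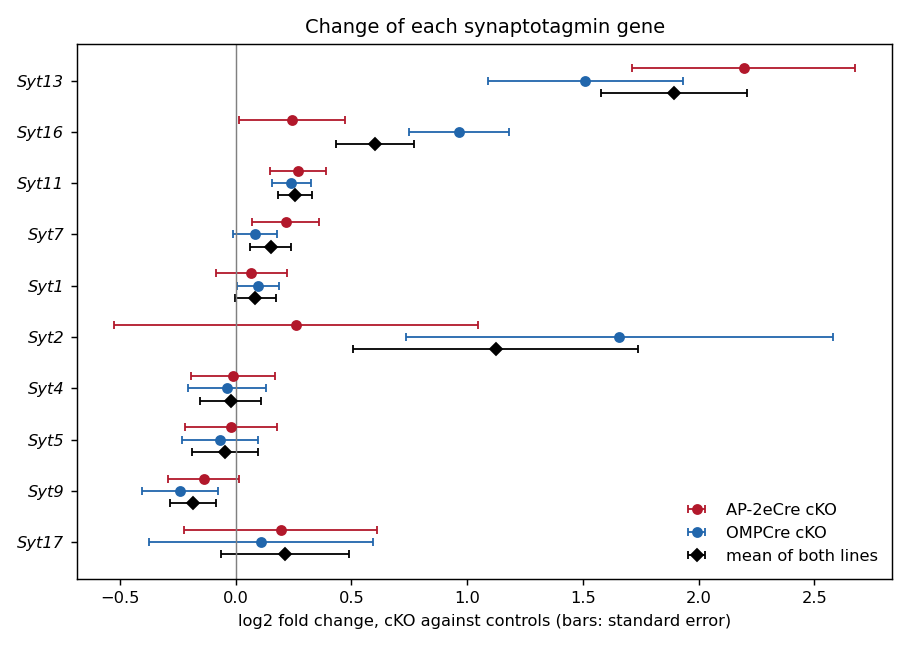
Log2 fold change of cKO against controls for each member in the AP-2εCre line, the OMPCre line and the mean of both, with bars for 1 standard error. Syt13 lies at 2.20, 1.51 and 1.90, Syt16 at 0.24, 0.96 and 0.60 and Syt11 at 0.27, 0.24 and 0.26, while Syt1, Syt4, Syt5 and Syt7 lie within 0.22 of 0.

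The sensors of fast release did not differ beyond the spread between libraries. Syt1, the sensor of synchronous transmitter release, was at 112 ± 9.48 CPM in AP-2εCre cKO against 107 ± 20.2 CPM in controls, and at 113 ± 13.1 CPM in OMPCre cKO against 106 ± 7.90 CPM (n = 3 and 6). Its log2 fold changes were 0.07 (SE 0.15) and 0.10 (SE 0.091). Syt9 was at 8.93 ± 1.61 against 9.85 ± 1.38 CPM and at 7.61 ± 1.16 against 8.99 ± 1.45 CPM, with log2 fold changes of -0.14 (SE 0.15) and -0.24 (SE 0.16). Syt5, another calcium-binding member, ranged from 11.7 to 18.2 CPM in AP-2εCre cKO against 11.5 to 20.5 CPM in controls, and from 12.3 to 17.3 against 11.6 to 16.9 CPM in OMPCre, with log2 fold changes of -0.019 (SE 0.20) and -0.069 (SE 0.16). The groups overlapped for each of these genes in both lines.

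Syt2, the fast sensor best known from synapses of the hindbrain and the neuromuscular junction, was at the limit of detection. It had 1 to 26 counts in AP-2εCre controls and 14 to 35 in cKO. In OMPCre it had 4, 0 and 8 counts in flox controls, 10, 16 and 26 in Hets, and 14, 32 and 48 in cKO. The OMPCre ratio of mean CPM was 3.19 with overlapping groups, an exact permutation p of 0.036 and a log2 fold change of 1.66 (SE 0.92, edgeR adjusted p = 1.0), which became -0.031 with counts from length-scaled TPM. In AP-2εCre the log2 fold change was 0.26 (SE 0.79), and 2.45 (SE 0.87) with counts from length-scaled TPM. No change of Syt2 was called in either line, and its size depended on how the counts were made.

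Syt7 was at 276 ± 22.6 CPM in AP-2εCre cKO against 238 ± 38.6 CPM in controls, and at 303 ± 24.2 CPM in OMPCre cKO against 286 ± 27.6 CPM. Its log2 fold changes of 0.22 (SE 0.15) and 0.084 (SE 0.097) had edgeR adjusted p of 0.674 and 1.0. Among controls AP-2εCre minus OMPCre was -0.27 (SE 0.10), with an unadjusted p under 0.05 and an edgeR adjusted p of 0.564. Syt4, which sits on dense-core vesicles, was at 35.0 ± 3.90 against 35.4 ± 7.66 CPM and at 42.4 ± 1.72 against 43.5 ± 8.89 CPM. Its log2 fold changes were -0.011 (SE 0.18) and -0.036 (SE 0.17).

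Syt17 had 15 to 126 counts in a library and log2 fold changes of 0.20 (SE 0.42) in AP-2εCre and 0.11 (SE 0.48) in OMPCre. In OMPCre it was at 0.328, 0.449 and 0.278 CPM in Hets against 0.516, 1.08 and 0.814 CPM in flox controls, and the OMPCre cKO libraries were at 0.513, 0.773 and 0.586 CPM. The Het libraries were all below the flox controls, with a log2 fold change of -1.20 (SE 0.45) and an edgeR adjusted p of 0.809, where 0.0752% of genes were called. Syt17 was the 1 member with an unadjusted p under 0.05 there, beside 5.84% of genes. With counts from length-scaled TPM the log2 value was -0.057. Main-epithelium neuron markers summed to 264 to 311 CPM in these Hets against 155 to 183 CPM in the flox controls. Their part in the Syt17 difference was not tested. In the Het comparison of AP-2εCre, where 0.0487% of genes were called, no member reached an unadjusted p under 0.05, beside 5.47% of genes.

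As a group, 7 of the 10 members had a positive log2 fold change in AP-2εCre, 7 of 10 in OMPCre and 7 of 10 in the mean of both. Over all genes tested the shares were 50.6%, 48.6% and 49.6%. The members' median was 0.21, 0.10 and 0.18 on the log2 scale, beside medians of 0.0030, -0.0046 and -0.0012 over all genes. The members were chosen with earlier results of these data known, so these shares do not describe the whole family. Of 18 other synaptotagmins and C2-domain relatives tested, 5 were higher in AP-2εCre (median -0.20) and 6 in OMPCre (median -0.14). By edgeR 0 of 10 members were called in each line, beside 0.0378% of all genes in AP-2εCre and 0.0% in OMPCre. In the mean edgeR called 1 of 10, Syt13, beside 0.205% of genes. By DESeq2 1 of 10 was called in each line, Syt13 in AP-2εCre beside 1.53% of genes and Syt16 in OMPCre beside 0.239%. In the mean DESeq2 called Syt13 (adjusted p = 3.56e-06), beside 1.24% of genes.

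Members moved together across the 18 libraries to different degrees, described by Pearson's r of log2(CPM + 1). Syt7 and Syt11 were most alike (r = 0.912, and 0.968 after group means were removed). Syt1 was most like Syt11 (r = 0.762), Syt4 most like Syt7 (r = 0.799) and Syt2 most like Syt16 (r = 0.696). For Syt13 the most alike member was Syt16 (r = 0.642, within groups 0.541), and for Syt5 it was Syt9 with only r = 0.281. The libraries share their group structure, depth and cell makeup, so these values describe the libraries.

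Among all genes that passed the filter, the 5 most like Syt13 over the 18 libraries were Sez6l (r = 0.880), Olfm2 (0.870), Tmem104 (0.857), Unc13c (0.845) and Txnl4a (0.831). Unc13c, a relative of the vesicle-priming Munc13 proteins, was at 9.06 to 15.3 CPM in the 6 cKO libraries and at 2.42 to 5.04 CPM in the 12 controls. Sez6l, a neuronal membrane protein, was at 3.97 to 5.72 CPM against 0.739 to 1.89 CPM. Within groups their r fell to 0.150 for Unc13c and 0.311 for Sez6l, while it stayed at 0.718 for Olfm2 and 0.714 for Tmem104. Txnl4a overlapped between cKO and controls, at 29.0 to 34.8 CPM against 22.0 to 29.8 CPM.

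Relatives and partners of the synaptotagmins were counted in 4 lists. Of 19 other synaptotagmins and C2-domain relatives 18 were tested, and by edgeR 0 rose and 0 fell in either line or in the mean, with 1 called by DESeq2. That gene was Sytl4, a granule-docking Rab27 effector, at 5.55 to 6.31 CPM in AP-2εCre cKO against 7.88 to 10.3 CPM in controls (log2 fold change -0.54, SE 0.13, edgeR adjusted p = 0.269, DESeq2 adjusted p = 0.0193). In OMPCre Sytl4 was at 6.35 to 6.66 CPM against 4.29 to 8.33 CPM. The lowest p of the list in OMPCre was that of Syt6, at 0.544 to 0.725 CPM in cKO against 0.631 to 1.39 CPM (log2 fold change -0.87, SE 0.35, edgeR adjusted p = 1.0). In AP-2εCre Syt6 was at 1.10 to 2.03 CPM against 0.159 to 1.22 CPM, the other direction (0.97, SE 0.55, edgeR adjusted p = 0.594), and the difference between the lines, 1.87 (SE 0.69), had the lowest p of the list without a call (edgeR adjusted p = 0.941). Log2 fold changes were positive for 5 of 18 in AP-2εCre (median -0.20) and for 6 of 18 in OMPCre (median -0.14).

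Of 23 fusion SNAREs and regulators 22 were tested, and by edgeR 0 rose and 0 fell, with medians of 0.032 in AP-2εCre and 0.045 in OMPCre. Cplx2, a complexin, was at 69.7 to 82.5 CPM in AP-2εCre cKO against 57.3 to 72.4 CPM (log2 fold change 0.27, SE 0.089, edgeR adjusted p = 0.359). For the difference between the lines the lowest p of the list was that of Vamp4, a SNARE of the trans-Golgi network and endosomes, at 23.8 to 24.5 CPM in AP-2εCre cKO against 23.6 to 27.2 CPM and at 24.1 to 26.8 CPM in OMPCre cKO against 21.2 to 27.0 CPM (difference -0.22, SE 0.093, edgeR adjusted p = 0.965).

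Of 10 vesicle partners of synaptotagmins, such as the SV2 proteins and presynaptic calcium channels, all 10 were tested and by edgeR 0 rose and 0 fell, with positive values for 9 of 10 in AP-2εCre (median 0.15) and 6 of 10 in OMPCre (median 0.034). Cacna1a, the pore of the P/Q-type calcium channel, was at 5.98 to 6.51 CPM in AP-2εCre cKO against 3.59 to 5.12 CPM without overlap (log2 fold change 0.55, SE 0.15, edgeR adjusted p = 0.309). The lowest p in OMPCre was that of Sv2c, at 106 to 109 CPM against 83.2 to 114 CPM (0.14, SE 0.094, edgeR adjusted p = 1.0). Of 11 dense-core vesicle genes 10 were tested and by edgeR 0 rose and 0 fell, with medians of 0.21 in AP-2εCre and 0.042 in OMPCre. Ptprn2, a granule membrane protein, was at 7.14 to 9.54 CPM in AP-2εCre cKO against 10.1 to 15.8 CPM (-0.63, SE 0.15, edgeR adjusted p = 0.269, DESeq2 adjusted p = 0.0169). In OMPCre Ptprn2 was at 7.45 to 12.3 CPM against 4.05 to 19.5 CPM, and Scg3 had the lowest p of the list, at 185 to 221 CPM against 159 to 209 CPM (0.11, SE 0.10, edgeR adjusted p = 1.0). In the mean the lowest p was that of Pcsk2, a prohormone convertase, at 5.35 to 6.65 CPM in AP-2εCre cKO against 2.73 to 5.40 CPM and at 4.15 to 4.96 CPM in OMPCre cKO against 4.13 to 5.47 CPM (mean 0.25, SE 0.13, edgeR adjusted p = 0.593).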

How the data were processed

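Stranded polyA+ mRNA-seq of whole VNOs gave single reads of 75 bases. Transcript quantification by the authors used Salmon 0.14.0 with mouse transcripts (GRCm38), and their tests used DESeq2 1.22.2. The deposited values are an estimated count and a TPM for each of 116248 transcripts, the TPM scaled by the authors to 1000000 per library. GENCODE vM21 paired 116072 transcripts with a gene. No gene was found for 176, which together took 0.0324% of the counts or less in any library and were not used. Gene counts are rounded sums of estimated counts, and deposited TPM was summed per gene.

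Groups came from the sample labels. The labels give 1 AP-2εCre library the title of a Het and the genotype of a cKO, and it entered no comparison. The labels call the libraries of a group biological replicates, and replicate numbers were not taken to pair animals. Library sets were read from the form of the library names.

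The main test was edgeR 4.0.16 (R 4.3.3; limma 3.58.1), quasi-likelihood, with TMM, filterByExpr and Benjamini-Hochberg adjustment at 0.05 over all genes tested. In the fit of a line the Het and flox controls formed 1 group. Fits with both lines and Het comparisons used group means. Alternatives were DESeq2 1.42.0, edgeR with DESeq2's size factors, no filter beyond 1 count over all libraries, counts from length-scaled TPM, the library set as a covariate, a replicate block, either kind of control alone, all 18 libraries in 1 fit, and each library left out. Fits on the letter-and-number set alone and levels over transcripts of 500 bases or longer were added after seeing the data. Summaries used pandas 2.3.3 and numpy 2.4.6 under Python 3.11.15, and plots matplotlib 3.10.9.

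All 10 members were described. In the Het and control comparisons, Syt13 and members with an unadjusted p under 0.05 were named. List genes were named if called by edgeR or DESeq2 or if they had the lowest p of their list in a cKO comparison. Likeness named the 5 genes with the highest r to Syt13. The members and lists were chosen with earlier results of these data known, among them the higher Syt13 in AP-2εCre cKO, so that difference is not independent support for its choice. The test was tested on simulated data with 200 genes changed by a log2 value of 1, of which 51.8% of those tested were recovered in the design of the AP-2εCre comparison, 46.9% in OMPCre and 68.0% in the mean. 1 list gene that met the naming rule and 1 sequence are not reported here. Protein sequences were not used here.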

Additional observations from a re-analysis of the deposited data

Results flagged for a closer look

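Among the 6 AP-2εCre controls, Het replicate 1 lay far below the others for Syt7, at 159 CPM with the next library at 249 CPM, a gap of 0.888 of the group's range. The same library was far below the others for Syt11, at 204 CPM with the next at 278 CPM, a gap of 0.755 of the range. Both gaps exceed the critical value of Dixon's test at the 95% level for 6 samples. Of the 20 sets tested (10 members in 2 lines), chance flags about 1 in 20. Het replicate 1 was the lowest of the 6 controls for 6 of 10 members, namely Syt1, Syt2, Syt4, Syt7, Syt11 and Syt16. In this library the 5 basal VSN markers summed to 320.1 CPM against 503 to 645 CPM in the other 5 controls, the 3 neuroendocrine markers to 424 against 636 to 819 CPM, and the 4 sustentacular markers to 3374 against 1406 to 2112 CPM. Their part in the low values was not tested.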

How the results depend on the processing

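Not counting fits that left out a library, 298 of 320 checks of the log2 fold changes reported above kept their direction and side of the threshold, 19 reversed, 2 became called and 1 was lost. With a library left out, 448 of 477 did so, 27 reversed and 2 were lost. The cause of each change below was not tested, apart from the smaller number of libraries in fits that leave some out. The replicate numbers were not taken as pairs, since the labels do not tie them to a shared litter or day and not every same-numbered pair of libraries correlated above 0.1. In AP-2εCre 2 of 9 pairs did (mean r -0.083, other pairs 0.042), and in OMPCre 7 of 9 (mean r 0.24, other pairs -0.12), where replicate 3 of each group is also the library named by line and number. The replicate block left the mean Syt13 rise called, at 1.93, and gave 52 genes called in the mean.

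Genes called in AP-2εCre cKO (7) became 314 by DESeq2, 24 with flox controls alone, 16 in 1 fit of 18 libraries, and 2 each with length-scaled TPM, with the letter-and-number set alone, with the set as a covariate and under the replicate block. In OMPCre cKO (0) they became 45 by DESeq2, 11 with Hets alone, 15 in 1 fit and 1 with the covariate. In the mean (40) they became 254 by DESeq2, 18 with length-scaled TPM, 21 in the letter-and-number set and 69 with the covariate. For the difference of lines (1) they were 53 by DESeq2, 2 each with the filter of 1 count, the letter-and-number set and the covariate, and 0 with the replicate block. In the Het comparisons, AP-2εCre (9) gave 125 by DESeq2, 4 with length-scaled TPM, 14 with the filter of 1 count, 5 with the covariate and 3 under the replicate block, and OMPCre (14) gave 158 by DESeq2 and 7 under the block. Between controls of the lines (39) there were 201 by DESeq2 and 7 under the block. Members called became 1 by DESeq2 in each line and 0 in the mean with the letter-and-number set.

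With each library left out, genes called ranged from 2 to 8 in AP-2εCre cKO, 0 to 2 in OMPCre cKO, 23 to 58 in the mean, 0 to 5 for the difference, 3 to 21 and 6 to 19 in the Het comparisons of AP-2εCre and OMPCre, and 22 to 53 between controls, and members called in the mean from 0 to 1.

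These checks cover all 10 members in the cKO comparisons and their mean, Syt13 and Syt16 in the difference of lines, and in the Het and control comparisons Syt13 with the members named there, so reversals of other members in those comparisons are not counted. Each reversal was of a value that was not called. In AP-2εCre, Syt1 was -0.083 with flox controls alone, Syt4 was 0.026 in the letter-and-number set and 0.0098 under the replicate block, and Syt5 was 0.0025 with flox controls alone, 0.10 with length-scaled TPM, 0.32 in the letter-and-number set and 0.013 with the covariate. In OMPCre, Syt2 was -0.031 and Syt17 -0.11 with length-scaled TPM, Syt17 was -0.37 and Syt4 0.11 with flox controls alone, and Syt4 was 0.078 in the letter-and-number set. In the mean, Syt4 was 0.062 and Syt5 0.10 in the letter-and-number set, and Syt5 was 0.032 and Syt17 -0.0011 with length-scaled TPM. With length-scaled TPM, the difference of lines for Syt16 was 0.56 and its difference between controls -0.057. Syt13 between controls was 0.27 with the covariate. With each library left out, values ranged in AP-2εCre from -0.021 to 0.14 for Syt1, -0.11 to 0.080 for Syt4, -0.19 to 0.13 for Syt5 and -0.073 to 0.37 for Syt17, in OMPCre from -0.13 to 0.018 for Syt4, -0.26 to 0.014 for Syt5 and -0.072 to 0.39 for Syt17, in the mean from -0.082 to 0.040 for Syt4 and -0.14 to 0.032 for Syt5, and for Syt13 from -0.53 to 0.51 in OMPCre Hets and -0.30 to 0.30 between controls. Levels over transcripts of 500 bases or longer were 43.3 TPM for Syt7, 7.81 for Syt5 and 0.177 for Syt17, and 6 of 10 members then kept their place in the order, as 6 did in CPM. At these depths Syt13 rested on 5 to 48 counts in controls, which limits the precision of its ratios.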

Other observations

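The AP-2εCre library whose title and genotype labels conflict belonged to no group. It had 19 estimated counts of Syt13 and 0.103 TPM. Its other members were at 23.6 TPM for Syt1, 0.0201 for Syt2, 10.3 for Syt4, 12.1 for Syt5, 274 for Syt7, 3.13 for Syt9, 93.2 for Syt11, 2.91 for Syt16 and 0.240 TPM for Syt17.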
